A study of Mus musculus with 19 samples.

Results

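Liver of wild-type (WT) C57BL/6 mice made azotemic with furosemide was set against liver of WT C57BL/6 mice that had no injection, across all genes. The comparison holds 8 of the 19 libraries of the series, 4 titled as WT pre-renal azotemia (PRA) and 4 titled as normal, and it was made for every gene that passed a filter on low counts, 15570 of 55416. WT PRA mice had 2 intraperitoneal injections of 4 mg furosemide 3 h apart, and the liver was taken 6 h after the first. The 4 WT vehicle libraries, from mice given vehicle on the same schedule, lie between those groups and split the difference into a vehicle step (vehicle against normal) and an azotemia step (PRA against vehicle). Libraries of IL-6-/- knockout mice on that background, 4 after vehicle and 3 after furosemide, served as an azotemia comparison that shares no library with the WT groups. Furosemide and the act of injection cannot be told apart in WT PRA against normal alone. The azotemia step holds furosemide, fluid loss and azotemia together, and these cannot be told apart either. The name of the step does not assign its changes to azotemia. The labels state neither age nor sex nor the hour of day, and nothing in them ties a replicate to a mouse of its own, so the p-values describe scatter among libraries, which could be technical.

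Furosemide blocks salt uptake in the loop of Henle of the kidney. The fluid loss that follows lowers kidney perfusion, and urea and other nitrogenous waste build up in blood, which is what pre-renal azotemia means. The liver makes that urea, and it also answers inflammatory cytokines with acute phase proteins, chiefly through IL-6 and STAT3, and stress hormones with genes under the glucocorticoid receptor. Metallothioneins, small cysteine-rich proteins that hold zinc and copper, respond to metals through the factor MTF1, to glucocorticoids and to cytokines.

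Between 32073865 and 74041441 counts fell in genes in each of the 12 WT libraries, and 3 counts, taken here as the floor of detection, correspond to 0.0405 to 0.0935 CPM (counts scaled to a common library total) in the 19 libraries. Hepatocyte genes were present throughout, with Alb, the gene of serum albumin, at 45657 to 52918 CPM in normal and 60618 to 66742 CPM in WT PRA. Kidney and pancreas markers were largely absent, with 4 of 8 and 2 of 8 of them past the filter. Some libraries stood apart from the other 3 of their group. WT PRA replicate 1 held 115 genes at 1 CPM or more that were at least 3-fold above every other WT PRA library, among them Krt19, a keratin of bile ducts, at 40.9 CPM against 1.10 or less. The same count was 1 to 2 in the other WT PRA libraries, 2 to 27 in vehicle and 4 to 13 in normal libraries. Normal replicate 1 was high for immediate early genes such as Fos and Egr1, and normal replicate 2 for heat shock genes, and results that touch them are given with that library left out.

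Promoters of Mt2, Mt1 and Hspa5 are shown first. The metallothioneins rose at both steps. Hspa5, the chaperone BiP of the endoplasmic reticulum (ER), was among the genes classed as returned to normal. That class held it in 8 of the 12 fits with a WT library left out. Each promoter is the 250 bases before the start in RefSeq on GRCm38.p6, whose coordinates are not those of the counts. Capitals mark matches, on either strand, to the core of the metal response element bound by MTF1, searched as TGCACNC or TGCGCNC, or in Hspa5 to the ER stress response element, searched as CCAAT, any 9 bases and CCACG. Overlapping matches counted separately.
Mt2 (chr8:94172368-94172617, plus strand): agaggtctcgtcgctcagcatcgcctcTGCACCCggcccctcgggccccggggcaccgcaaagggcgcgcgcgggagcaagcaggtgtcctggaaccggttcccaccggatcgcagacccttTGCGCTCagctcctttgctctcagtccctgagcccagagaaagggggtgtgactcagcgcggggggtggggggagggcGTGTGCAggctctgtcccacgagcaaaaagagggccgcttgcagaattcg
Mt1 (chr8:94178839-94179088, plus strand): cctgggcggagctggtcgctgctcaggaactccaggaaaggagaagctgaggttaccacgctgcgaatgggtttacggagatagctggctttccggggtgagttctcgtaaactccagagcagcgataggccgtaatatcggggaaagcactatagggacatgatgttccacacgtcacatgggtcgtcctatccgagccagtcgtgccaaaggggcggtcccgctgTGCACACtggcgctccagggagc
Hspa5 (chr2:34771840-34772089, plus strand): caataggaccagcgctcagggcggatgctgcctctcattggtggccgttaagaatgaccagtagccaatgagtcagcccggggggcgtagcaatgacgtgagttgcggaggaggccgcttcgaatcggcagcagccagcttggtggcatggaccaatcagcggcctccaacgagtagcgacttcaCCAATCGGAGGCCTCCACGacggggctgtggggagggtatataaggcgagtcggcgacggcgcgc
Mt2 held 3 metal response cores and Mt1 held 1 in this window. The counts depend on the single start listed for each gene, and bases outside the window were not searched, so they do not rank the promoters. Of all 27025 symbols in the promoter table, 23.8% had at least 1 core and 1.46% had at least 3, while the shares were 33.4% and 2.32% among the 11230 tested genes that it lists. The ER stress element was found in 0.13% of all symbols and 0.169% of tested ones. A match is a run of letters and not evidence of binding. No entry was found for Nrep, Dclk3 or Hspa8.

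Over the sum of the vehicle and azotemia steps 4421 genes changed, 28.4% of those tested, at an adjusted p of 0.05 or less in edgeR's quasi-likelihood test. Of these, 2098 (13.5%) were higher in WT PRA and 2323 (14.9%) lower, and changes of at least 2-fold numbered 667 (4.28%) and 690 (4.43%). The level of 5229 genes, 33.6%, did not overlap between the 4 WT PRA and the 4 normal libraries. The azotemia step alone called 3437 genes (22.1%), 1516 higher (9.74%) and 1921 lower (12.3%). Vehicle alone called 311 (2%), 183 higher (1.18%) and 128 lower (0.822%). Because both steps use the vehicle libraries, the log2 fold changes of the steps add up exactly to that of WT PRA against normal. Among the 4421 genes, the median size of the log2 change was 0.68 for the sum, 0.21 for the vehicle step and 0.51 for the azotemia step.

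Mt2 rose most of all genes that met the naming rule. Its level was 3.39, 3.68, 4.23 and 4.02 CPM in the normal libraries, 33.3, 103, 139.8 and 109 CPM after vehicle and 2011, 1768, 2311 and 1679 CPM in WT PRA. No library of any of these groups overlapped another group, and vehicle replicate 1 was the lowest of its group. The log2 fold change was 4.65 ± 0.46 (SE) for vehicle against normal and 4.34 ± 0.44 for PRA against vehicle, which makes 8.98 ± 0.55 for PRA against normal (edgeR adjusted p = 1.19e-08). In knockout libraries Mt2 stood at 13.6, 51.9, 30.5 and 18.5 CPM after vehicle and 863, 658 and 579 CPM in PRA. Mt1, the other main metallothionein of liver, ran from 19.4 to 25.0 CPM in normal through 79.8 to 342 CPM after vehicle to 2395 to 4094 CPM in WT PRA, a log2 fold change of 7.15 ± 0.47 over the sum. About equal parts of the log2 rise of both genes belonged to each step.

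The other large rises came mainly at the azotemia step. Lcn2, which encodes the siderophore-binding protein lipocalin-2, was at 3.49, 3.06, 3.26 and 2.49 CPM in normal, 7.54, 6.11, 5.44 and 6.93 CPM after vehicle and 930.3, 833, 1041 and 725 CPM in WT PRA. The groups did not overlap, yet the vehicle step (log2 1.08 ± 0.34, adjusted p = 0.115) was not called, while the sum was log2 8.16 ± 0.42 (adjusted p = 1.35e-09). Saa1, a serum amyloid A protein of the acute phase, went from 55.3, 41.6, 60.2 and 45.7 CPM to 187, 87.1, 136 and 69.0 CPM after vehicle and 7495, 7752, 9440.0 and 5774 CPM in WT PRA, a log2 change of 7.23 ± 0.46 from normal. Saa2 followed with 8.45 ± 0.67, although the near-identical sequence of Saa1 and Saa2 leaves the division of reads between them uncertain, as it does for the orosomucoids Orm2 (4.64) and Orm3 (5.30). Cdkn1a, which encodes the cell cycle inhibitor p21, was at 2.70, 4.51, 4.23 and 2.92 CPM in normal and 200.1, 161, 157 and 137 CPM in WT PRA (log2 5.50 ± 0.76). Vehicle libraries of Cdkn1a split, with 23.2, 21.7, 5.83 and 6.85 CPM, all above normal. Igfbp1, an insulin-like growth factor binding protein raised in fasting and stress, was at 29.8, 12.7, 59.1 and 52.4 CPM in normal, 81.7, 32.4, 47.2 and 35.9 CPM after vehicle and 1005, 859.9, 1196 and 683 CPM in WT PRA, with the vehicle libraries overlapping the normal ones. Cxcl1, a neutrophil-attracting chemokine, rose at both steps, by log2 1.39 and 3.35. Fam107a (5.24 over the sum), a glucocorticoid-induced gene, and S100a8 (4.30), a calcium-binding protein of neutrophils, complete the 12 largest rises, and S100a8 did not exceed 3.79 CPM.

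Nrep, named for neuronal regeneration, fell furthest but 1 among the genes that met the rule. It stood at 24.7, 17.8, 14.9 and 46.3 CPM in normal, 2.17, 9.06, 9.75 and 11.5 CPM after vehicle and 0.683, 2.21, 0.803 and 3.78 CPM in WT PRA. Each WT PRA library lay below each normal library, vehicle replicate 1 fell among the WT PRA values, and the fall was log2 -3.74 ± 0.60 (edgeR adjusted p = 0.000253). Its vehicle step was not called (log2 -1.68, adjusted p = 0.122), and its azotemia step was (log2 -2.06, adjusted p = 0.019). Dclk3, a doublecortin-like kinase, was at 15.9, 10.6, 17.0 and 13.2 CPM in normal, 8.54, 9.52, 14.9 and 12.2 CPM after vehicle and 1.29, 1.58, 1.74 and 1.39 CPM in WT PRA. Vehicle and normal libraries of Dclk3 overlapped, WT PRA lay far below both, and its fall of log2 -3.23 ± 0.28 was almost wholly an azotemia step (-2.90). In knockout libraries Dclk3 was called lower in PRA as well (log2 -2.58 ± 0.30).

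The other large falls included single genes of lipid and bile acid metabolism, although the bile acid list as a whole had 3 of 20 genes lower than normal and 5 higher. Its share lower was near the 14.9% over all tested genes, of which 13.5% were higher. Cyp7a1, which sets the pace of bile acid formation from cholesterol, was at 106, 137, 218 and 176 CPM in normal, 82.1, 175, 85.0 and 129 CPM after vehicle and 7.80, 41.6, 22.1 and 16.6 CPM in WT PRA, a fall of log2 -2.85 ± 0.44. Vehicle and normal overlapped, and WT PRA lay below both. Cyp4a14, a fatty acid hydroxylase under PPAR-alpha, varied widely without furosemide, with 64.5, 146, 102 and 13.9 CPM in normal and 143, 35.3, 23.0 and 293 CPM after vehicle, and was at 6.83, 10.3, 11.7 and 11.3 CPM in WT PRA (log2 -3.02 ± 0.79). Normal replicate 4 came within 3 CPM of the WT PRA libraries. Acot3, an acyl-CoA thioesterase, had the largest fitted fall (log2 -5.34 ± 1.46), but its WT PRA values of 0, 0.180, 0.161 and 0.0671 CPM were at or near the floor, and vehicle replicate 4 alone reached 48.5 CPM against 2.03 to 6.63 CPM in normal. Reads of the Acot and Cyp4a families may be divided among close copies. Abcd2, a peroxisomal fatty acid transporter, fell from 5.48 to 14.6 CPM to 1.30 to 1.62 CPM, with vehicle replicate 1 at the WT PRA level of 1.30 CPM. Angptl8, which restrains lipoprotein lipase after feeding, fell from 22.4 to 138 CPM to 10.98 to 15.5 CPM. Tlr12, a receptor for microbial profilin, fell by log2 -2.97 ± 0.27, to 0.575 to 1.69 CPM. Cd276, an immune checkpoint protein, was the only gene of the 12 largest falls called lower at both steps (-1.19 and -1.29).

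**Figure D1:**
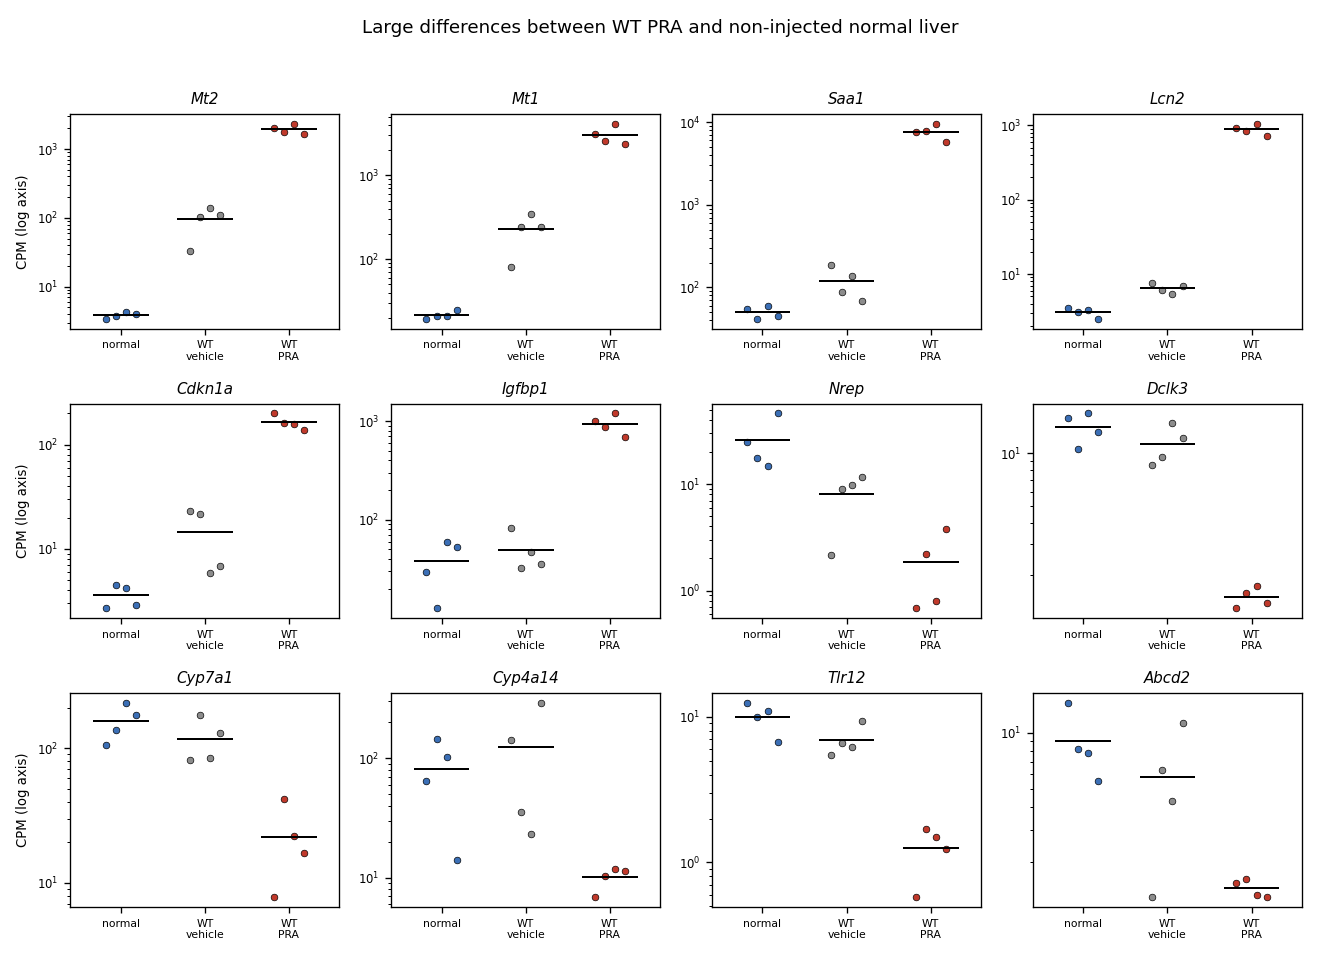
CPM on a log axis for 12 of the genes described, in 4 normal, 4 WT vehicle and 4 WT PRA libraries; each point is a library and each bar the group mean. For Mt2 the 3 groups form separate levels, whereas for Dclk3 and Cyp7a1 vehicle and normal overlap and WT PRA lies below both.

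When the genes were sorted by which of the 3 comparisons called them, the sum turned out to have several make-ups. The largest class, 2494 genes or 72.6% of the azotemia calls, was called at the azotemia step and in WT PRA against normal but not after vehicle. A further 1701, 38.5% of the 4421, were called in neither step and passed only as a sum, with medians of 0.26 for the size of each step and 0.53 for the total. In 77 genes both steps went the same way (62 up, 15 down) and the sum was called. In 133 genes, 42.8% of the vehicle calls, the shift after vehicle was still called against normal and the azotemia step was not (82 up, 51 down). In 850 genes, 24.7% of the azotemia calls, WT PRA was not called different from normal. Of those 850, 328 were higher and 522 lower than vehicle, and for 612 the 95% interval of WT PRA against normal lay within 2-fold. For the rest the interval reached past 2-fold, and these genes are not shown to be at the normal level. The limit is loose for changes of this size. It was also met by 1041 of the 1701 genes called only as a sum, which were called different from normal. Meeting it does not by itself place the 612 at the normal level.

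**Figure D2:**
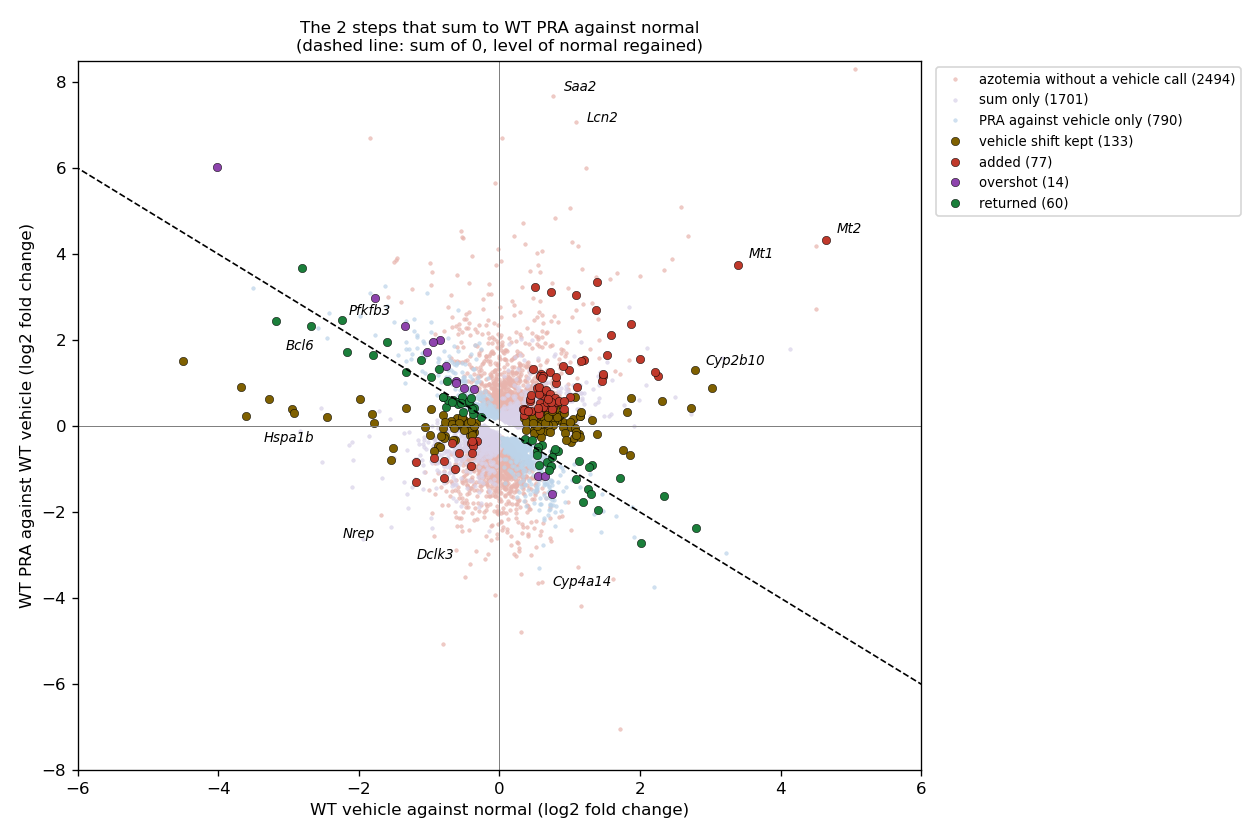
Log2 fold change of the vehicle step (x axis) against that of the azotemia step (y axis), 1 point per gene in the classes named in the key, with the number of genes in brackets. On the dashed line the steps cancel, the returned genes lie along it, and Mt1 and Mt2 lie far from it at upper right; genes in no class, partly returned genes and genes called after vehicle only are left out.

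Genes shifted at the vehicle step and brought back at the azotemia step were 60, called with opposite signs at the steps and not called against normal. They were 19.3% of the vehicle calls and 1.75% of the azotemia calls. Vehicle had lowered 33 of them and raised 27. For 48 the 95% interval of WT PRA against normal lay within 2-fold, and for 31 within 1.5-fold. The remaining 12 are not shown to be at the normal level. The 2-fold limit is wider than the median vehicle step of the class, log2 0.74. Of the 133 genes with a kept vehicle shift, 57 met it too, so meeting it does not by itself show a return to the normal level. Both steps contain the vehicle libraries with opposite sign, so a vehicle group that is off by chance or for a technical reason moves a gene into this class, and the sizes of the steps were selected by the class itself. The knockout libraries, which include no normal group, bear only on the azotemia step and not on the vehicle shift. Knockout PRA against vehicle called 25 of the 60 in the direction of the WT azotemia step and 0 in the other direction, with 16 of the 33 called higher and 9 of the 27 called lower, beside 7.96% and 8.38% of all tested genes. Among genes called at the azotemia step and against normal but not after vehicle, it called 1277 of 2494 in that direction. Among genes called at the azotemia step alone, it called 211 of 790 in that direction.

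Pfkfb3, an enzyme that makes the activator of glycolysis fructose 2,6-bisphosphate, led the genes lowered after vehicle among those at 2 CPM or more whose interval against normal lay within 2-fold, ranked by the smaller step. It was at 34.7, 32.8, 41.8 and 30.6 CPM in normal, 11.996, 4.32, 5.42 and 7.60 CPM after vehicle and 36.7, 35.5, 48.4 and 41.4 CPM in WT PRA. All vehicle libraries lay below all others, normal and WT PRA overlapped, and the log2 changes were -2.24 ± 0.33 and 2.46 ± 0.34, leaving 0.21 ± 0.31 (95% interval -0.46 to 0.88). Knockout libraries ran from 2.24 to 6.65 CPM after vehicle to 12.1 to 26.3 CPM in PRA (log2 1.99 ± 0.36, adjusted p = 0.00125). Nr0b2, the bile acid induced repressor SHP, was at 7.40, 23.8, 34.5 and 32.3 CPM in normal, 6.73, 3.37, 9.97 and 8.36 CPM after vehicle and 29.5, 17.8, 15.4 and 26.8 CPM in WT PRA. Normal replicate 1 sat among the vehicle libraries, and the interval of WT PRA against normal for Nr0b2, -0.99 to 0.72, was wide. Amd1, which makes the donor for polyamine synthesis, was at 18.3 to 20.3 CPM in normal, 10.7 to 12.5 CPM after vehicle and 13.3 to 21.4 CPM in WT PRA, and in knockout PRA it was called higher than in knockout vehicle (log2 0.89 ± 0.12). Klf2, a flow-responsive transcription factor of endothelium, was at 9.48 to 14.6 CPM, 4.91 to 9.05 CPM and 12.8 to 22.1 CPM, and its WT PRA level against normal, log2 0.47 ± 0.18, just missed the threshold (adjusted p = 0.0615).

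Noct, a rhythmic phosphatase of NADPH, and Bcl6, a transcriptional repressor, also returned, and are named after their values were seen. Noct was at 14.3, 39.0, 78.1 and 39.0 CPM in normal, 11.8, 10.2, 6.61 and 9.16 CPM after vehicle and 29.1, 37.2, 31.8 and 27.0 CPM in WT PRA. Bcl6 was at 25.7, 77.1, 95.2 and 14.1 CPM, 10.6, 5.91, 9.30 and 7.16 CPM and 42.7, 43.1, 34.0 and 45.2 CPM. Normal libraries of both genes were spread several-fold, vehicle and WT PRA libraries were close within their groups, and the interval of WT PRA against normal for Bcl6 ran from log2 -1.33 to 0.60. Levels of both were called higher in knockout PRA than in knockout vehicle, by log2 2.23 ± 0.41 and 1.86 ± 0.50.

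Of the heat shock list 2 of 25 genes returned, Hspa8 and Bag3, and of the ER stress list 1 of 31, Hspa5. Over all tested genes 60 of 15570 returned. Hspa5 was at 529, 935, 546 and 555 CPM in normal, 465, 354, 405 and 394 CPM after vehicle and 679.5, 620.4, 578 and 573 CPM in WT PRA, and Hspa8, the constitutive cytosolic Hsp70, at 790.2, 1272, 832 and 835 CPM, 666, 561, 631 and 620.0 CPM and 916, 919.9, 826 and 998 CPM. In both, every vehicle library was below every normal and WT PRA library, and normal replicate 2 stood above the rest. Without normal replicate 2 the vehicle step of Hspa5 was log2 -0.43 (edgeR adjusted p = 0.107) and that of Hspa8 -0.40 (adjusted p = 0.129), neither of them called. Bag3, a co-chaperone of Hsp70, was at 50.2, 116, 73.8 and 65.3 CPM, 47.0, 46.4, 41.6 and 47.3 CPM and 95.8, 95.2, 94.4 and 90.6 CPM, and without that library it was called above normal in WT PRA (log2 0.57, adjusted p = 0.000494). Knockout PRA against knockout vehicle called Bag3 higher (log2 0.84) but not Hspa5 (0.30, adjusted p = 0.235) or Hspa8 (0.29, adjusted p = 0.203).

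The other 27 genes were raised after vehicle and lowered again. Zc3h12d, an RNA-binding zinc finger protein, was at 3.10, 2.40, 2.72 and 1.87 CPM in normal, 6.71, 7.07, 6.04 and 4.65 CPM after vehicle and 3.38, 3.13, 3.18 and 3.00 CPM in WT PRA. Cbx2, a Polycomb subunit, was at 4.18, 4.68, 5.82 and 5.57 CPM, 9.76, 10.4, 11.9 and 12.6 CPM and 6.47, 5.73, 5.19 and 7.83 CPM. Vipr1, a receptor of vasoactive intestinal peptide, was at 15.8, 21.7, 20.4 and 28.6 CPM, 46.3, 36.8, 32.4 and 33.0 CPM and 23.8, 24.5, 26.7 and 22.2 CPM. In all of these each vehicle library lay above each normal and WT PRA library, and normal and WT PRA overlapped. In the knockout none of the 3 was called, with log2 changes of -0.51 ± 0.20, -0.19 ± 0.24 and -0.03 ± 0.16. Cdt1, which licenses DNA replication, Dyrk1b, a quiescence kinase, and Exph5, Pheta1 and Zfp956 completed the 8 named on this side, with vehicle steps of log2 0.57 to 0.84, and of these only Dyrk1b was called in the knockout (log2 -0.60 ± 0.16). Of the 60 genes, 11 stayed in the class whichever of the 12 WT libraries was left out, among them Pfkfb3, Noct, Bcl6, Amd1, Cbx2, Vipr1, Zc3h12d and Zfp956. Pheta1 stayed in the class in 9 of those 12 fits, Cdt1 in 3, and Dyrk1b and Exph5 in 2 each. Among named genes lowered after vehicle, Bag3 stayed in 10, Hspa5 and Hspa8 in 8 each, and Nr0b2 and Klf2 in 6 each. Doc2g, which also met the naming rule on that side, stayed in 3. Without normal replicate 2 the class held 17 genes, 15 of them from the 60.

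**Figure D3:**
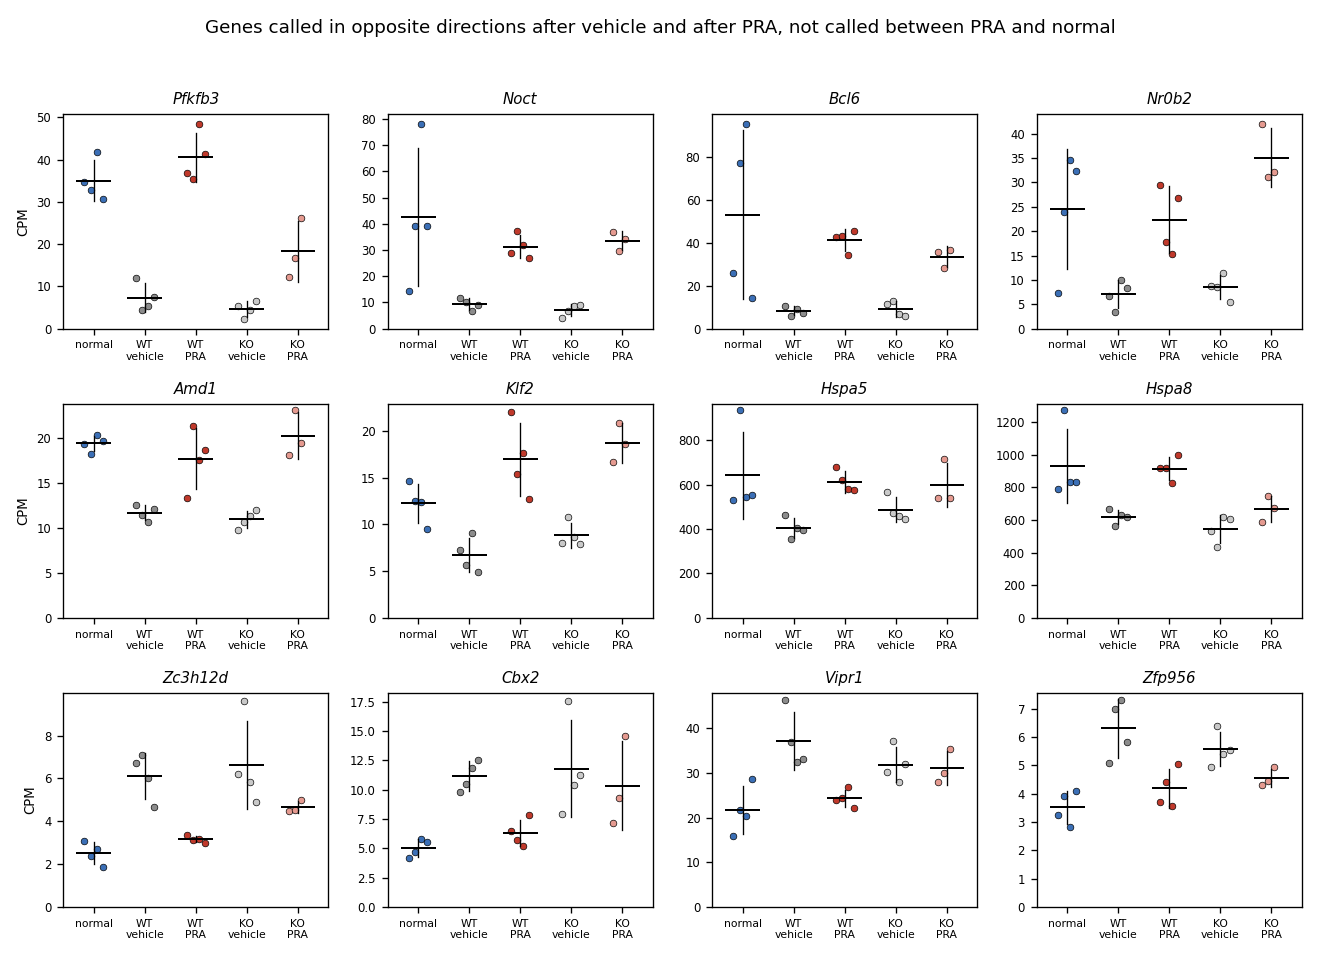
CPM of 12 returned genes in the 12 WT libraries and the 7 of IL-6 knockout (KO) mice; points are libraries, horizontal bars means and vertical lines SDs. For Pfkfb3 all vehicle libraries are under all normal and WT PRA libraries, and for Zc3h12d all WT vehicle libraries are above them.

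The azotemia step carried 14 genes past the normal level after an opposite vehicle step, 11 to a higher and 3 to a lower level. In the knockout 13 of the 14 were called in the same direction. Over all tested genes the knockout called 7.96% higher and 8.38% lower, but this class was selected for a called azotemia step. Cabyr, a calcium-binding protein known from sperm, was at 6.11, 5.36, 5.75 and 4.33 CPM in normal, 2.51, 2.02, 1.59 and 2.33 CPM after vehicle and 12.6, 10.1, 11.2 and 9.24 CPM in WT PRA, 3 levels with no overlap. Nfkbia, the inhibitor of NF-kB, was at 48.5, 48.9, 60.5 and 39.1 CPM, 31.0, 30.8, 33.2 and 33.2 CPM and 69.2, 75.6, 55.3 and 66.2 CPM, which overlapped only between normal and WT PRA. Rcan1, an inhibitor of calcineurin, and Tcim ended log2 1.14 and 1.02 above normal. On the lower side Rasl11b, Frat1 and Ttc30b ended log2 -0.85, -0.63 and -0.52 from normal. Only 2 genes were brought part of the way back, Lars2 and Dnajb9. Dnajb9, an ER co-chaperone, was at 44.6 to 80.2 CPM in normal, 26.9 to 31.9 CPM after vehicle and 33.0 to 48.9 CPM in WT PRA. Counts of Lars2, which shares sequence with mitochondrial rRNA, went from 240.1 to 360.0 CPM to 78.7 to 106 CPM and 123 to 171 CPM, and the azotemia step of both genes was lost without some of the libraries.

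Among the 77 genes with added steps, 68 were called in the same direction in the knockout and 0 in the other. These genes too were selected for a called azotemia step, and knockout calls made up 7.96% (higher) and 8.38% (lower) of all tested genes. Retreg1, a receptor for autophagy of the ER, was at 32.8, 32.2, 32.1 and 37.6 CPM in normal, 100.01, 97.1, 95.2 and 97.9 CPM after vehicle and 308, 308, 348 and 273 CPM in WT PRA. Its 3 levels did not overlap, and each step was about 3-fold (log2 1.54 ± 0.19 and 1.66 ± 0.19). Fkbp5, a co-chaperone and classic glucocorticoid target, was at 43.7, 50.3, 48.3 and 60.6 CPM, 129, 137, 122 and 178 CPM and 318, 305, 362 and 285 CPM, again without overlap. Map3k6, a stress-activated kinase, rose by log2 1.59 and 2.13. Added falls were led by Cd276, with Cyp2u1, a fatty acid hydroxylase, at 62.7 to 82.9 CPM, 35.2 to 47.0 CPM and 15.4 to 18.99 CPM, and by Banp and Hes6, a transcriptional regulator of the Hes family.

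Vehicle shifts still called against normal without a called azotemia step included rises of Cyp2b10, a drug-metabolising P450, and Fbxo32, a ubiquitin ligase of atrophy. Cyp2b10 was at 2.91, 3.15, 6.97 and 8.56 CPM in normal, 35.6, 51.8, 24.9 and 37.2 CPM after vehicle and 108, 115, 98.3 and 50.4 CPM in WT PRA. Vehicle lay above normal in every library and overlapped WT PRA only through replicate 4 of WT PRA, and the sum was log2 4.09 ± 0.66 although the azotemia step was not called (adjusted p = 0.128). Hspa1b, the inducible Hsp70, was at 9.56, 86.2, 14.0 and 9.17 CPM, 7.24, 1.88, 2.57 and 3.49 CPM and 6.33, 4.58, 4.44 and 4.90 CPM. Its fall after vehicle was lost when vehicle replicate 2, 3 or 4 was left out, and normal replicate 2 was 6-fold or more above the other normal libraries. The mitochondrial rRNA mt-Rnr2, named after its values were seen, fell from 1414, 1350.4, 1108 and 1073 CPM to 645, 635, 672 and 538 CPM after vehicle and stayed at 518, 517, 584 and 539 CPM in WT PRA. The libraries were made from poly(A) RNA, which largely lacks rRNA. Blnk, an adaptor of B cell receptor signalling, and Mycn fell after vehicle to under 1.5 CPM.

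Gene lists show which processes had matching and which had opposing steps. Their counts stand beside the shares of all tested genes. Against normal these were 13.5% higher and 14.9% lower, at the azotemia step 9.74% and 12.3%, and after vehicle 1.18% and 0.822%. Acute phase proteins rose in 34 of 34 members against normal, with 7 called higher after vehicle and 30 at the azotemia step, and a median log2 change of 1.93 made of 0.57 and 1.55, beside medians of -0.02, 0.01 and -0.03 over all tested genes. Serpina3n, a protease inhibitor, was at 364 to 403 CPM in normal, 585 to 719 CPM after vehicle and 4530.2 to 7389 CPM in WT PRA, and Itih4 and Itih3, inter-alpha-trypsin inhibitor heavy chains, rose by log2 1.81 and 1.80, each called at both steps. Serpina3n has close copies whose reads may be divided. The fibrinogen chains Fga and Fgg, of the coagulation list, rose by log2 1.75 and 1.78, and 16 of 31 members of that list rose and 4 fell. Complement had 16 of 29 higher and 0 lower, with C4b at log2 0.86 and C9 at 0.93. Neutrophil markers moved with these lists: 11 of 12 tested were higher and 1, G0s2, lower, their summed level was 263 to 408 CPM in normal, 288 to 465 after vehicle and 1149 to 1439 in WT PRA, and Lcn2 alone made up most of that rise. S100a8 and S100a9 were at 2.98 to 3.79 and 2.06 to 3.45 CPM in WT PRA, Ngp, Ltf and Camp did not pass the filter on low counts, and the part of neutrophils in the acute phase changes was not tested. In bulk tissue, more cells of a type and more RNA per cell cannot be told apart.

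Genes responsive to glucocorticoids were higher in 19 of 24 and lower in 1, Nr3c1, the receptor itself, with 21 called higher at the azotemia step. For 4 of them, Dusp1, Per1, Sgk1 and Tsc22d3, named here as the whole of that count, the rise over vehicle did not put WT PRA above normal by the test, and without normal replicate 3 the 4 became 2. Tsc22d3, the glucocorticoid-induced leucine zipper, was at 57.0, 137, 197 and 71.4 CPM in normal, 57.2, 49.6, 41.5 and 35.1 CPM after vehicle and 177, 129, 91.4 and 130.4 CPM in WT PRA. Dusp1, a phosphatase of MAP kinases, was at 112, 92.0, 67.9 and 84.9 CPM, 33.4, 45.2, 41.1 and 21.9 CPM and 156, 121, 144 and 132 CPM. Normal and WT PRA libraries overlapped for Tsc22d3, and for Dusp1 they did not, but the difference of log2 0.63 ± 0.36 had an adjusted p of 0.201. Rasd1, a small GTPase induced by dexamethasone, had no such vehicle step: it was at 0.498 to 1.05 CPM, 0.387 to 0.807 CPM and 8.88 to 13.2 CPM. Tat, the glucocorticoid-induced tyrosine aminotransferase, was at 905 to 2549 CPM, 749 to 2027 CPM and 5469 to 6444 CPM.

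Immediate early genes had median steps of opposite sign. The list's median was log2 -0.44 after vehicle, 1.25 at the azotemia step and 0.54 in the sum. After vehicle only 1 of the 30 was called higher and 2 lower, and without normal replicate 1 these counts were 2 and 0. Against vehicle 19 of 30 were higher in WT PRA, yet against normal 10 were higher and 1 lower. The matching shares of all tested genes were 9.74%, 13.5% and 14.9%. Klf2 and Rhob returned, though neither did without normal replicate 1 or 2 or vehicle replicate 2, 3 or 4 or WT PRA replicate 4, and 7, namely Atf3, Dusp1, Dusp6, Fos, Jun, Jund and Klf4, were called only against vehicle. Fos was at 14.6, 1.64, 1.21 and 0.773 CPM in normal, 0.889, 1.10, 0.612 and 0.345 CPM after vehicle and 4.10, 4.83, 1.95 and 3.78 CPM in WT PRA, and Jun at 50.3, 53.1, 20.9 and 35.6 CPM, 21.6, 32.8, 20.0 and 31.1 CPM and 70.3, 86.9, 62.0 and 73.2 CPM. Fos was high in normal replicate 1 alone, and without that library 14 members were higher than normal. Btg2, an antiproliferative early gene, rose without a called vehicle step, from 6.88 to 9.89 CPM to 44.3 to 73.0 CPM, as did Junb (log2 2.12 ± 0.24), while Fosl2 was called higher at both steps.

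Heat shock and ER stress genes were also called in opposite directions at the steps in part. Of 25 heat shock genes, 5 were called lower after vehicle, 7 higher at the azotemia step, and 2 higher and 5 lower against normal. Leaving out 1 library at a time changed those counts to between 2 and 6 (2 without vehicle replicate 3), 4 and 9 (4 without vehicle replicate 2) and, for genes lower than normal, 3 and 5 (3 without normal replicate 2). Hspb8, a small heat shock protein, and Hspa2 rose against normal, by log2 1.66 and 1.73. Of 31 ER stress genes, 4 were lower after vehicle (Dnajb9, Hspa5, Manf and Syvn1), 12 were higher at the azotemia step, and 7 were higher and 4 lower against normal. The 4 became 2 without normal replicate 2, and the 12 became 6 without vehicle replicate 2. Over all tested genes, 0.822% were lower after vehicle, 9.74% higher at the azotemia step, and 13.5% higher and 14.9% lower against normal. Sesn2, an inhibitor of mTORC1, Ppp1r15a, which reverses eIF2-alpha phosphorylation, and Edem1, of ER-associated degradation, rose against normal by log2 1.003, 0.70 and 0.56.

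Markers of liver sinusoidal endothelium were lower at the azotemia step in 13 of 22 and higher in 1, Lyve1, while against normal 6 were lower and 3 higher (Lyve1, Pecam1 and Wnt2), and 7 of the 13 were not called against normal. Among all tested genes 12.3% were lower and 9.74% higher at the azotemia step, and 14.9% lower and 13.5% higher against normal. The 3 higher markers are near that last share. Summed levels of the markers were 540.1 to 637 CPM in normal, 596 to 853 after vehicle and 481 to 560.3 in WT PRA. Vehicle replicate 1 was high for several of them, and without it the 13 became 8 and the 7 became 2. Kdr, the VEGF receptor, was at 23.7, 24.7, 23.5 and 28.5 CPM, 39.6, 25.9, 25.0 and 25.9 CPM and 8.41, 12.7, 10.6 and 8.46 CPM, and Dnase1l3 and Fcgr2b fell from normal by log2 -0.56 and -0.64, each with every WT PRA library below every normal one. Lyve1, the hyaluronan receptor, went the other way, from 12.9 to 19.2 CPM in normal to 30.7 to 54.5 CPM in WT PRA. Hba-a1 was at 4.14, 3.68, 6.68 and 4.66 CPM in normal, 1.204, 1.35, 3.85 and 4.20 CPM after vehicle and 4.60, 6.95, 8.38 and 9.51 CPM in WT PRA, and all 4 globin genes tested were higher than vehicle and not called against normal. They share reads as near-identical copies, 2 of the 4 calls were lost without WT PRA replicate 4, and in the knockout Hba-a1 was not called (log2 0.20 ± 0.36).

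**Figure D4:**
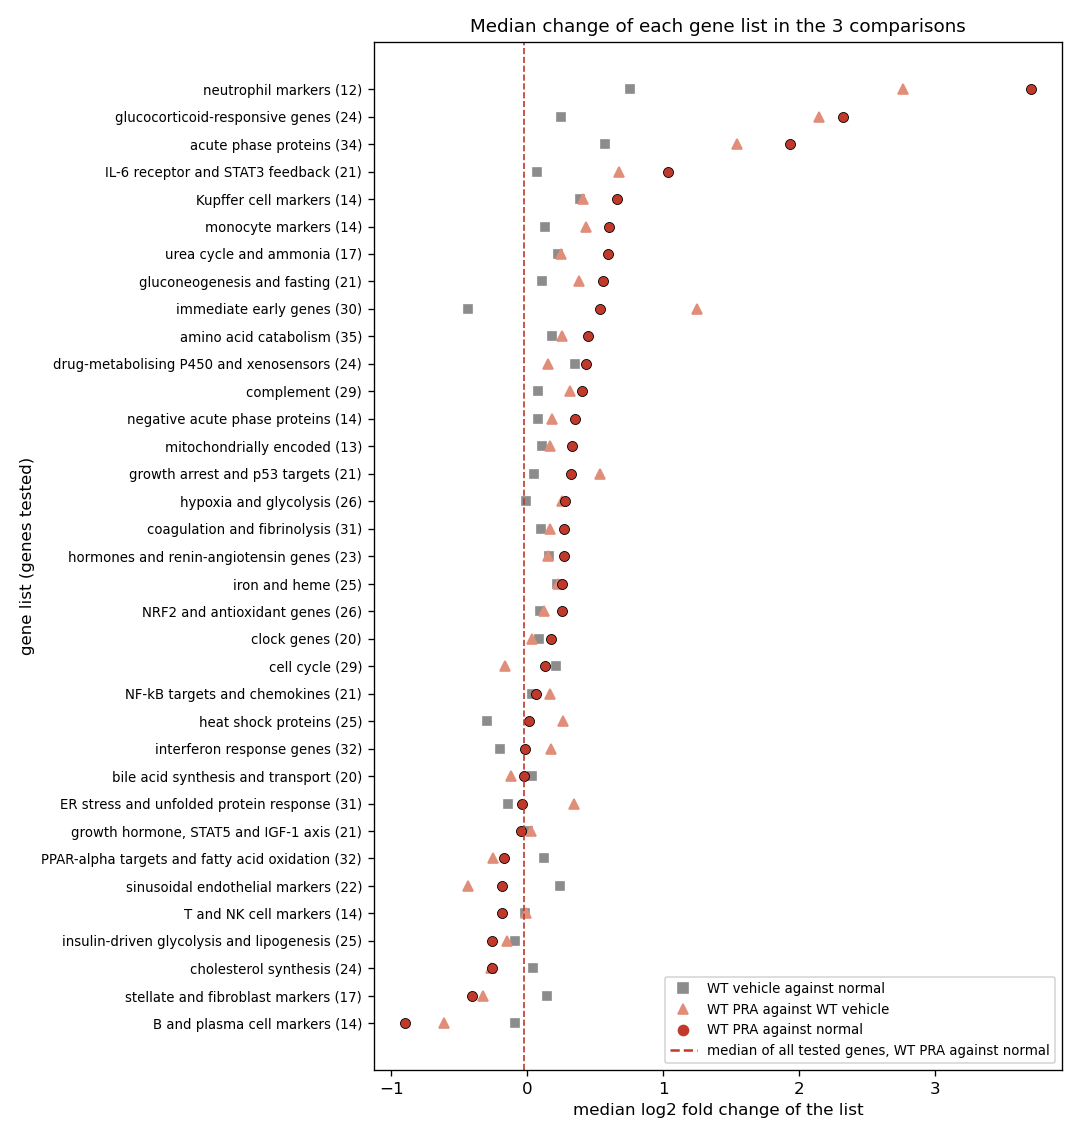
Median log2 fold change of each list with at least 10 tested genes (number tested in brackets) for vehicle against normal (squares), PRA against vehicle (triangles) and PRA against normal (circles). Immediate early genes have a vehicle median of -0.44 and an azotemia median of 1.25, on opposite sides of 0, whereas the acute phase medians of 0.57 and 1.55 lie on the same side.

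In amino acid catabolism 21 of 35 genes were higher than normal and 0 lower, 12 were called at the azotemia step, 0 after vehicle, and 9 only as a sum, a share of the 21 near the 38.5% over all calls against normal. Aass, which starts lysine breakdown, was at 148, 156, 188 and 195 CPM in normal, 329.6, 279, 197 and 223 CPM after vehicle and 604, 678, 724 and 547 CPM in WT PRA, with no overlap between any groups. Kmo, of the kynurenine pathway, and Sdsl, a serine dehydratase-like enzyme, rose by log2 0.78 and 1.37. Of 17 genes of the urea cycle and ammonia handling, 10 were higher than normal, 0 lower, and 6 were called only as a sum. Cps1, the first enzyme of the urea cycle and named after its values were seen, was at 1541, 1788, 1946 and 2096 CPM, 2858, 2639.5, 2301 and 2134 CPM and 2689.6, 3203, 2985 and 2924 CPM. Its steps of log2 0.43 ± 0.13 and 0.25 ± 0.13 were not called, and their sum of 0.68 ± 0.13 was (adjusted p = 0.000595). Arg1, the enzyme that releases urea, behaved alike in these libraries, with 0.47 ± 0.13, 0.35 ± 0.13 and 0.82 ± 0.13. Slc38a2, an amino acid transporter, and Slc25a15, the mitochondrial ornithine carrier, rose at the azotemia step, the first from 43.2 to 78.7 CPM after vehicle to 201.4 to 266 CPM.

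Drug-metabolising P450 genes and their receptors were higher than normal in 11 of 24 and lower in 0, and 6 of the 11 passed only as a sum, for example Cyp1a2 at 625 to 719 CPM, 745 to 994 CPM and 949 to 1184 CPM. Cyp3a13 and the xenobiotic receptor gene Nr1i2 were higher at both steps. Of 14 Kupffer cell markers 6 were higher than normal, beside 13.5% of all tested genes, and 5 of the 6 were called in neither step. Cd163, a scavenger receptor of macrophages, was at 3.68, 8.87, 7.38 and 6.01 CPM in normal, 24.3, 15.1, 11.9 and 8.47 CPM after vehicle and 21.0, 23.7, 20.1 and 20.6 CPM in WT PRA. Summed Kupffer markers were at 275 to 475 CPM in normal, 322 to 553 after vehicle and 461 to 665 in WT PRA, which overlap, and the 6 became 3 without WT PRA replicate 2 and 9 without vehicle replicate 4.

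Counts in the lists of fat and sterol genes stand beside 14.9% lower and 13.5% higher over all tested genes. Of 32 PPAR-alpha targets and genes of fatty acid oxidation, 9 were lower than normal and 4 higher, 10 were lower at the azotemia step, and 3, Acot1, Acot2 and Ppara, were lower than vehicle without being called against normal. Bdh1, an enzyme of ketone bodies, fell from 185 to 235 CPM to 99.3 to 111 CPM, whereas Ucp2, a mitochondrial carrier, and Plin5, a lipid droplet protein, rose by log2 1.133 and 0.95. Without vehicle replicate 4, in which Cyp4a14 and Acot3 were high, 0 genes of the list were called only against vehicle. In glycolysis and lipogenesis under insulin, 6 of 25 were lower than normal and 2 higher, with Srebf1, the master factor of lipogenesis, at 214, 203, 291 and 254 CPM in normal, 176, 179, 183 and 220.1 CPM after vehicle and 103, 99.6, 102 and 94.8 CPM in WT PRA. Of 24 cholesterol synthesis genes, 6 were lower than normal and 1 higher, which was not called without normal replicate 3, and 2 were lower at the azotemia step, where 12.3% of all genes were.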

How the data were processed

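Poly(A) RNA of mouse liver was sequenced as read pairs on an Illumina NovaSeq, per the labels' protocols. What the authors deposited are raw read counts for each gene, in a series table and in single-library files with the same values. HISAT2 2.2.1, SAMtools 1.13, HTSeq 0.11.3 and build GRCm39 are named in the submitters' processing notes; no annotation release or strand setting is given in the sources used here, so overlapping and antisense genes cannot be told apart. Lines for reads outside genes (6.28% to 7.58% of a library) or not uniquely placed (14.07% to 19.15%) stayed out of library sizes and tests, and 52083 gene lines, with 99.58% of counts, had a symbol.

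Counts were fitted in edgeR 4.0.16 (R 4.3.3) with filterByExpr, TMM scaling and 1 robust quasi-likelihood model of group means over all 19 libraries, with depths of 32073865 to 74041441 counts. Each comparison had its own Benjamini-Hochberg adjustment, with a threshold of 0.05. Levels are TMM-scaled CPM, errors of log2 changes are standard errors, and the scripts were tested on simulated data. Groups came from the sample titles. Classes were set by the calls of the 3 WT comparisons. Alternatives were other scalings, filters, DESeq2 1.42.0, limma 3.58.1, other sets of libraries, a replicate block, stricter thresholds and each WT library left out. Intervals cover the scatter of the fit only, and the floor of 3 counts covers counting error only.

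Genes were named by rule: a symbol, at least 2 CPM in a WT group and, for WT PRA against normal, the 12 largest called, non-overlapping changes in each direction. In addition came up to 8 returned genes per direction with an interval within 2-fold, up to 4 per direction of the other classes, and up to 3 members with the smallest p from each of 40 lists. Acot1, Acot2, Arg1, Atf3, Bcl6, Cps1, Dusp1, Dusp6, Egr1, Fos, G0s2, Jun, Jund, Klf4, Lyve1, Manf, Noct, Nr3c1, Pecam1, Per1, Ppara, Rhob, S100a9, Sgk1, Syvn1, Tat, Tsc22d3, Wnt2 and mt-Rnr2 were named outside the rule, after their values were seen. The comparison, gene lists and rule were chosen with earlier results of these data known.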

Additional observations from a re-analysis of the deposited data

Results flagged for a closer look

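In groups of 4 libraries, 27 of 408 groups of values examined (136 genes in the 3 WT groups) had a highest or lowest library far from the nearest of the others for the spread of its group, which chance gives in about 1 of 20 groups. These values are CPM.

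Normal replicate 2 was far above the other normal libraries for chaperone genes: 86.2 for Hspa1b (next highest 14.0), 935 for Hspa5 (next 555), 1272 for Hspa8 (next 835), 141 for Manf (next 85.7) and 165 for Syvn1 (next 95.8). Normal replicate 1 was far above for early genes: 14.6 for Fos (next 1.64), 30.7 for Egr1 (next 8.69), 4.20 for Atf3 (next 1.22) and 5.71 for Fosl2 (next 4.07). WT PRA replicate 1 was far above for 40.9 of Krt19 (next 1.10), 19.1 of Muc1 (next 1.42), 26.4 of Ly6d (next 1.128) and 5.36 of Fbxo32 (next 3.54), and below for Btg2 at 44.3 (next lowest 69.3).

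Vehicle replicate 4 was far above its group for 48.5 of Acot3 (next 5.77), 51.6 of Acot1 (next 21.2) and 220.1 of Srebf1 (next 183). Vehicle replicate 1 was far above for Kdr at 39.6 (next 25.9) and below for Angptl8 at 20.4 (next 38.6). Vehicle replicate 3 was far above for Dyrk1b at 25.9 (next 18.9) and Pdgfrb at 11.3 (next 8.47), and below for Bag3 at 41.6 (next 46.4). Single values of other libraries were 37.6 for Retreg1 and 0.790 for Orm3 in normal replicate 4, 0.883 for Fam107a (above) and 2.05 for Rasl11b (below) in normal replicate 3, and 232 for Sc5d (below) in WT PRA replicate 3.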

How the results depend on the processing

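Without a library in turn, WT PRA against normal called 3629 to 4825 genes, of which 1733 to 2325 were higher (587 to 672 by at least 2-fold) and 1896 to 2500 lower (602 to 762 by at least 2-fold). The azotemia step called 2754 to 3414 and the vehicle step 128 to 299. Returned genes ranged from 17, without normal replicate 2, to 72, without vehicle replicate 1, and those with an interval within 2-fold from 12 to 65. Partly returned genes ranged from 0 to 3, overshot from 7 to 24, added from 44 to 71, kept vehicle shifts from 51 to 128, azotemia calls without a vehicle call from 2008 to 2593, sum-only genes from 1234 to 2041 and genes called only against vehicle from 556 to 1003. Genes that WT PRA replicate 1 held high changed sign without it: over the libraries left out, the log2 change from normal was -1.45 to 2.44 for Krt19, -0.17 to 3.24 for Ly6d and -0.086 to 2.48 for Muc1, with the lowest of each without that library. DESeq2 called 655 genes after vehicle, and its classes held 123 returned (99 within 2-fold), 27 overshot, 164 added and 263 kept. With limma-voom these were 701 after vehicle, 151 returned (131 within 2-fold), 7 partly returned, 35 overshot, 151 added and 297 kept. At an adjusted p of 0.01, 2700 genes were called against normal (1357 higher, 1343 lower), 76 after vehicle and 1914 at the azotemia step, and the classes held 9 returned (7 within 2-fold), 0 partly returned, 2 overshot, 23 added, 38 kept, 1417 azotemia calls without a vehicle call and 463 called only against vehicle. A test for changes beyond 1.5-fold called 925 genes against normal, 516 higher and 409 lower, and 376 of the latter by at least 2-fold. With no filter on low counts 1 gene was partly returned, and a 1.5-fold limit on the interval left 31 returned genes.

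Of the 60 returned genes, 59 were among the 61 with RLE scaling, 53 among 63 with upper quartile scaling, 59 among 123 with DESeq2 and 52 among 151 with limma-voom. The class is small beside its spread over these choices, and its size should be read as a range. Upper quartile scaling moved the share of calls that were higher from 47.5% to 38.6%. The replicate block left 43 returned genes, 38 of them from the 60, and 4205 calls against normal. Same-numbered libraries of normal and WT PRA correlated by 0.136, 0.017, -0.022 and 0.039 in their deviations. The range was -0.219 to -0.055 for normal and vehicle, and -0.080 to 0.115 for vehicle and WT PRA. Correlations this few cannot decide whether libraries of the same number share more than the number. The class counts with each WT library left out for single lists were added after seeing the data.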

Other observations

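Markers of B and plasma cells were lower than normal in 8 of 14 and higher in 1, Ly6d, whose value came from WT PRA replicate 1 (26.4 CPM against 1.128 or less in the other WT PRA libraries). Among all tested genes 14.9% were lower and 13.5% higher. Cd74, the invariant chain of MHC class II, was at 88.1, 75.4, 84.7 and 71.9 CPM in normal, 49.8, 63.6, 101 and 53.6 CPM after vehicle and 59.2, 46.6, 67.1 and 54.0 CPM in WT PRA, and Igkc fell from 1.84 to 2.19 CPM to 1.07 to 1.60 CPM. Summed levels of the list overlapped, with 89.9 to 104 CPM in normal, 60.7 to 117 after vehicle and 55.9 to 94.2 in WT PRA, and the 8 became 4 without WT PRA replicate 1. In the knockout, PRA was below vehicle for Cd74 (log2 -0.84 ± 0.19) and Igkc (-1.63 ± 0.27). Stellate and fibroblast markers were lower in 4 of 17 and higher in 0, led by Ngfr, Pdgfrb and Lrat, beside 14.9% lower over all tested genes, and the 4 became 2 without normal replicate 4 and 6 without normal replicate 3.

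Hormone genes changed in both directions, 10 of 23 higher and 5 lower than normal, beside 13.5% and 14.9% of all tested genes. Inhbb, the activin B subunit, was at 2.68, 2.32, 2.40 and 1.99 CPM in normal, 3.39, 3.00, 1.92 and 3.09 CPM after vehicle and 17.8, 19.3, 19.7 and 15.8 CPM in WT PRA, while Inhba, the activin A subunit, went from 13.4, 8.27, 6.17 and 7.95 CPM through 6.84, 5.19, 4.85 and 6.11 CPM to 2.70, 1.24, 2.38 and 1.95 CPM. The rise and the fall both came at the azotemia step, and both were called in the knockout (log2 3.56 ± 0.18 and -1.62 ± 0.36). Agt, angiotensinogen, rose from 583 to 621 CPM in normal to 963 to 1505 CPM in WT PRA. Among 20 clock genes, 7 were higher and 2 lower than normal, and 6 of these passed only as a sum. The 7 became 3 without normal replicate 1, and the 2 became 4 without normal replicate 2. Per2 was at 15.1, 20.6, 25.1 and 19.2 CPM in normal, 7.04, 6.87, 12.3 and 16.1 CPM after vehicle and 6.69, 7.60, 8.46 and 6.53 CPM in WT PRA, and Nfil3 rose from 9.47 to 12.4 CPM to 46.5 to 71.7 CPM. The hour at which each liver was taken is not in the labels, and its part in these values was not tested.

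Hmox1, heme oxygenase, led the NRF2 list. In that list 10 of 26 were higher than normal and 1 lower, beside 13.5% and 14.9% of all tested genes. Hmox1 was at 8.87, 14.7, 10.6 and 12.5 CPM in normal, 22.3, 18.3, 21.8 and 16.0 CPM after vehicle and 210.4, 309, 154 and 109.5 CPM in WT PRA, with all WT PRA libraries above all others. Thbd, thrombomodulin, an anticoagulant receptor, rose from 2.15 to 3.16 CPM to 17.4 to 23.8 CPM. Alas2, of heme synthesis, was the 1 gene of the red blood cell list called against normal (log2 0.42 ± 0.09), at 111 to 123 CPM in normal and 133 to 173 CPM in WT PRA. It made up most of the summed level of that list, 132 to 141 CPM in normal. Whether its reads came from red blood cells was not tested. Among mitochondrially encoded genes 5 of 13 were higher than normal, all as sums in which neither step was called, and the 5 became 2 without normal replicate 3 and 8 without vehicle replicate 1.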
